A study of Mus musculus with 5 samples.

Results

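The genes described here are the molecular chaperones and protein-folding genes of mouse peritoneal macrophages that were given poly IC, a synthetic double-stranded RNA, with or without ethanol. Members were chosen by gene symbol. A member had a symbol that starts with Hsp, Dnaj, Pdia or Cct followed by a digit, or was one of Tcp1, Calr, Canx, Herpud1, Ddit3, Xbp1, Atf4, Atf6, Asns, Hyou1 and P4hb. Hspa1a, Hspa1b, Hspa8, Hsph1, Dnajb1 and the heparan sulfate gene Hspg2 were left out by the same rule. No value of Sdf2l1, which the rule also names, or of Hsp90ab1 was analysed here. This gave 65 genes of the 8251 genes with 1 symbol on the array, and 57 of the 65 passed the filter on low signal and were tested. Each gene is represented by its brightest probe set over the 5 arrays.

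RNA was hybridised to 1 array for each of 5 samples. Poly IC plus ethanol was measured in 2 samples, each pooled from mice given 0.1 mg poly IC per mouse and 6 g/kg ethanol as an acute oral dose. Poly IC alone was measured in 2 samples, each also pooled from mice; the label of pool 2 gives 0.1 mg per mouse, and that of pool 1 gives no dose. Naive macrophages, from untreated animals, were measured in 1 sample, whose label gives neither strain, sex nor age. All treated animals were females of the F1 cross C57Bl/6 x C3H, aged 12 weeks. No label states how many mice made up a pool, how poly IC was given or when cells were harvested. No array of ethanol alone was analysed here, so an effect of ethanol by itself and its effect on the poly IC response cannot be told apart. With 2 pools in a group, p-values rest only in part on the spread between pools, which gave 2 residual degrees of freedom. The larger part of the variance estimate, with 7.77 prior degrees of freedom, was borrowed from the other genes. The single naive array was taken to vary like the others.

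Chaperones bind unfolded or partly folded proteins and keep them from aggregating. In the cytosol, Hsp70 proteins bind short exposed stretches under the control of J proteins, and hand some clients on to Hsp90 or to the ring-shaped TRiC/CCT chaperonin, which folds actin and tubulin. In the endoplasmic reticulum (ER), the Hsp70 protein BiP and the Hsp90 protein Grp94 work with lectin chaperones and with protein disulfide isomerases on proteins bound for the membrane and for secretion. When unfolded proteins build up in the ER, the unfolded protein response acts through the transcription factors XBP1, ATF6 and ATF4, while heat shock factor 1 raises the cytosolic chaperones. Macrophages that sense double-stranded RNA make and secrete cytokines and interferon, and double-stranded RNA also activates the kinase PKR, which phosphorylates the translation factor eIF2 alpha in the same pathway that leads to ATF4.

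The label of macrophages was checked against markers. All 11 macrophage markers on the array were above the brightest unspiked control probe set in every group, and the signals of Lyz2, the macrophage lysozyme, were 77383 and 77488 with poly IC plus ethanol, 73144 and 81816 with poly IC, and 76774 in naive cells. The markers did not all stay level. Gata6, the factor of resident peritoneal macrophages, had signals of 1851 and 2188 with poly IC plus ethanol, 1169 and 1531 with poly IC, and 7218 in naive cells, and was called lower than naive in both treated groups. Tgfb2 was likewise called lower in both, Mertk was called lower with poly IC, and Cd14 was called higher than naive in both. Markers of other cells differed between the groups. The summed signal of 13 neutrophil markers was 39656 and 34072 with poly IC plus ethanol, 134338 and 97529 with poly IC, and 12472 in naive cells, where 8 of the 13 were below the brightest unspiked control. The summed signal of 11 B cell markers was 225452 and 240923 with poly IC plus ethanol, 194132 and 167190 with poly IC, and 374637 in naive cells. That of 3 red cell markers was 19534 and 10491 with poly IC plus ethanol, 18325 and 34046 with poly IC, and 1144 in naive cells. That of 6 mast cell markers, which include the histamine enzyme Hdc, was 31961 and 28596 with poly IC plus ethanol, 61424 and 35563 with poly IC, and 22215 in naive cells. Hdc alone had 12709 and 11266 with poly IC plus ethanol, 28453 and 25488 with poly IC, and 2416 in naive cells. It was the only mast cell marker called, and the median of the 5 tested was 0.03 for poly IC minus naive. The poly IC pools differed in Cma1, at 17658 and 4237. The part of these cells in the chaperone results was not tested. In these bulk samples, fewer cells of a type and less RNA per cell cannot be told apart. Across the tested genes the log2 signals of the poly IC plus ethanol pair correlated at 0.965, those of the poly IC pair at 0.976, and the naive array correlated with the others at 0.775 to 0.856. The 18S ribosomal RNA 3′ control probe set ranged from 5113.3 to 66547.6 and was highest on the array of poly IC pool 2. Signals are the authors' array signals in arbitrary units, scaled to a common target of 2500, and are compared between arrays within a probe set, not between genes.

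With poly IC plus ethanol against poly IC, 5 chaperone genes were lower and 1 was higher. The lower genes were Hsp90aa1, Cct3, Cct7, Hspd1 and Hspa5, which encode the inducible cytosolic Hsp90, a pair of subunits of the TRiC/CCT ring, the mitochondrial chaperonin Hsp60 and BiP. The higher gene was Hspa14, an Hsp70-like protein. A gene was called where its adjusted p in limma, with Benjamini-Hochberg adjustment over all 5443 genes tested, was under 0.05. The 6 calls are 10.5% of the 57 members, and 11.0% of all genes tested were called in this comparison. By direction, 8.77% of the members and 4.98% of all genes were lower, and 1.75% of the members and 6.03% of all genes were higher. Differences are given on the scale log2(signal + 250), which understates the change of dim genes. The median difference of the members was -0.15, that of all tested genes 0.07, and the members ranged from -0.97 to 1.18. Both pools of one group lay beyond both pools of the other for 43 members, or 75.4%, and for 55.2% of all genes tested. The member median was -0.11 without poly IC pool 1, -0.17 without poly IC pool 2, and -0.19 without ethanol pool 1 or pool 2. The medians of all genes were 0.08, 0.06, 0.11 and 0.04 in that order. With 1 pool left out the number of calls moved widely, for all genes as for members. All 5 lower calls were lost without an intensity trend in the variance estimate, where calls over all genes fell from 599 to 133. There, 19.3% of the members and 9.41% of all genes were lower at an unadjusted p under 0.05.

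With poly IC against naive, 11 chaperone genes were higher and 2 were lower. The higher genes were Hsp90aa1, Cct3, Cct7, Hspd1, Hspa5, P4hb, Xbp1, Atf4, Asns, Dnajb6 and Dnaja2, and the lower ones were Herpud1 and Dnajc9. The 13 calls are 22.8% of the members, against 32.8% of all genes tested. Higher calls were made for 19.3% of the members and 12.1% of all genes, and lower calls for 3.51% of the members and 20.8% of all genes. The median difference of the members was 0.20, and that of all genes was -0.16. The member median was 0.21 without poly IC pool 1 and 0.22 without poly IC pool 2, against -0.17 and -0.16 for all genes. The number of calls again moved with 1 pool left out, for all genes as for members. With poly IC plus ethanol against naive, Asns and Dnajb6 were higher and Herpud1 was lower. These 3 calls are 5.26% of the members, against 17.2% of all genes, of which 8.69% were higher and 8.52% lower, with a member median of 0.01 and a median of all genes of -0.11. The member median was 0.03 without ethanol pool 1 and 0.08 without ethanol pool 2, against -0.09 and -0.12 for all genes. Here too the calls moved with 1 pool left out, and neither higher call was kept without poly IC pool 1 or pool 2. The comparisons share the poly IC arrays or the naive array, so their values for a gene are not independent and are given side by side.

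**Figure D1:**
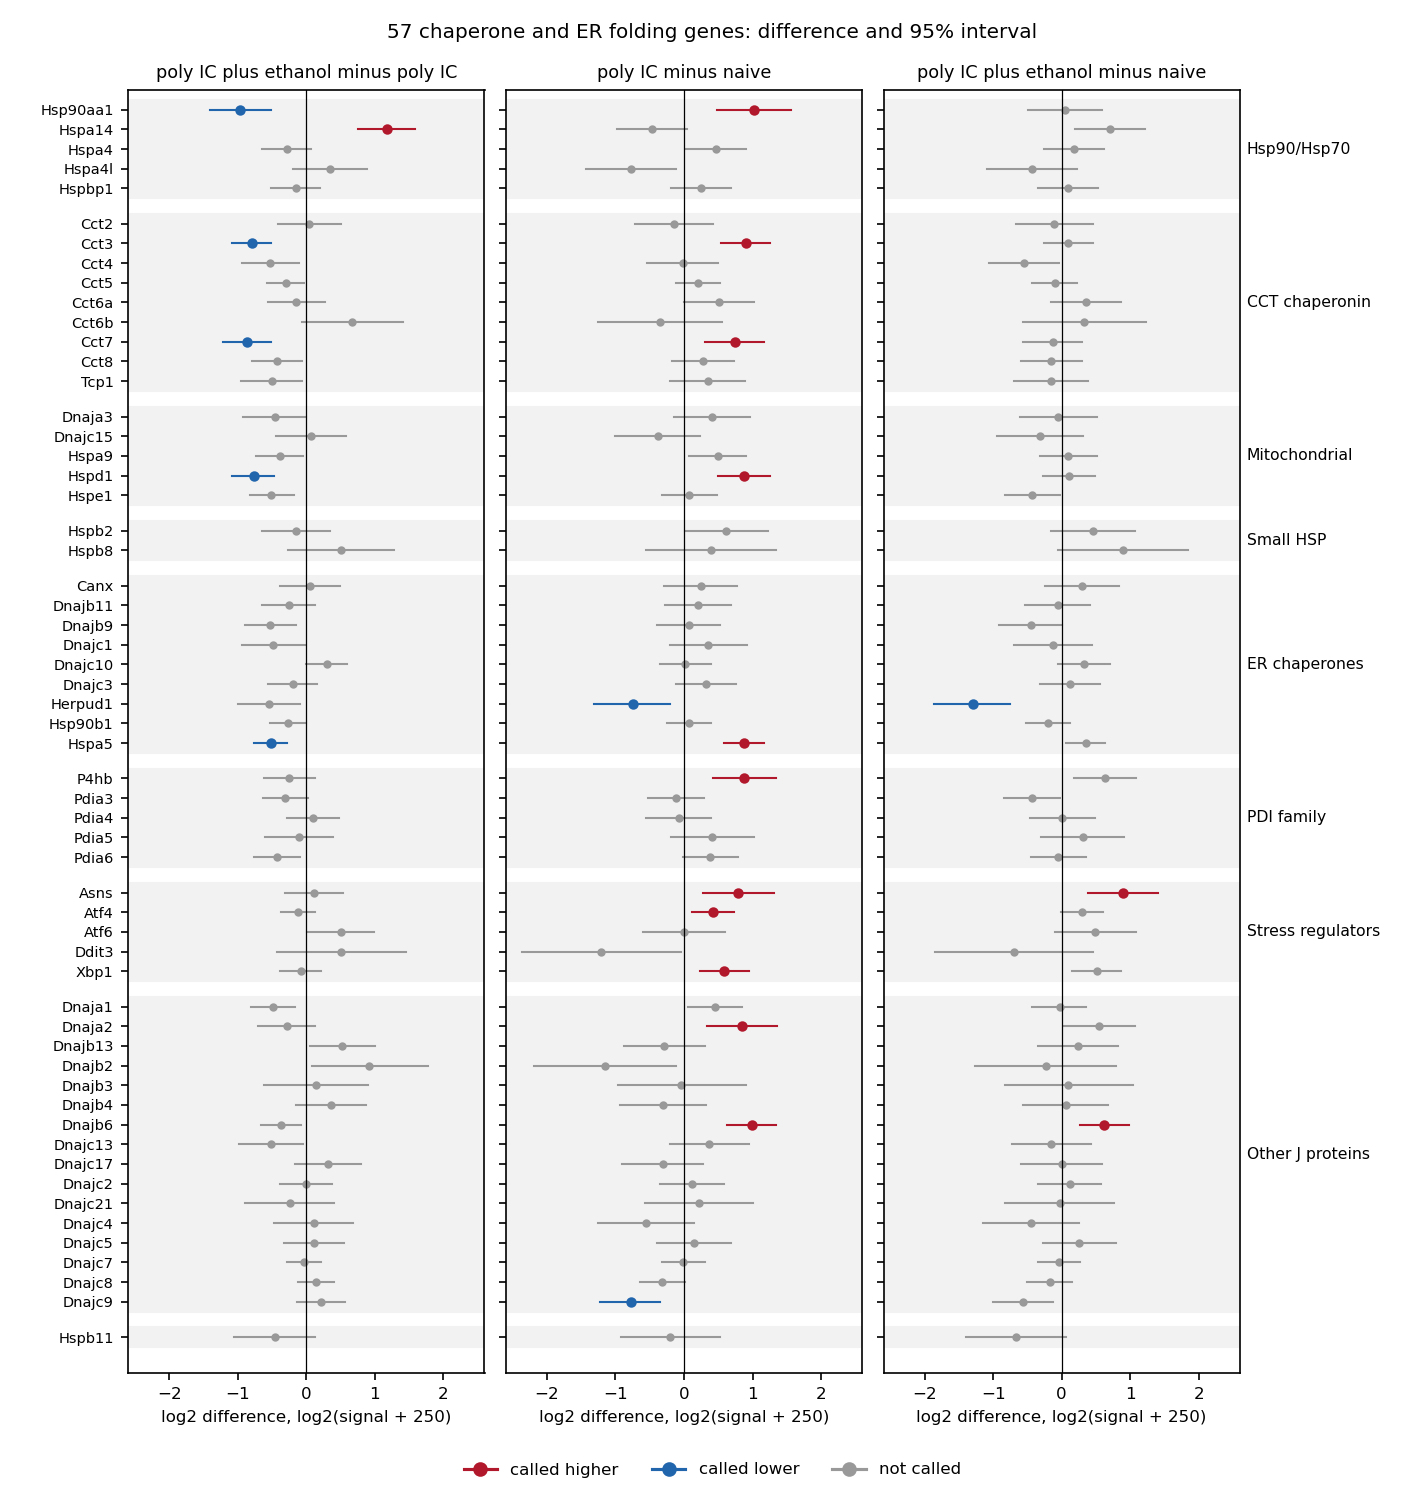
Difference in log2(signal + 250) for the 57 tested chaperone and ER folding genes, by role, in poly IC plus ethanol minus poly IC (left, 2 pools each), poly IC minus naive (middle) and poly IC plus ethanol minus naive (right, 1 naive array). Points are limma estimates, bars their 95% confidence intervals, and colour marks genes called higher, called lower or not called; in the left panel 5 genes were called lower and 1 higher, and in the middle panel 11 were called higher and 2 lower.

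The cytosolic Hsp90 and Hsp70 genes held the largest differences among the members in the comparison of poly IC plus ethanol with poly IC, in both directions. Hsp90aa1, the stress-inducible Hsp90 that matures kinases and steroid receptors, had signals of 35987 and 21411 with poly IC plus ethanol, 51913 and 57238 with poly IC, and 26777 in naive cells. Both poly IC pools stood above every other array, and the naive array lay between the ethanol pools. Hsp90aa1 was lower with poly IC plus ethanol than with poly IC by a log2 difference of -0.97 (SE 0.20, 95% confidence interval -1.41 to -0.52, adjusted p = 0.0143). It was higher with poly IC than in naive cells by 1.02 (SE 0.24, adjusted p = 0.00959), while poly IC plus ethanol minus naive was 0.05 (adjusted p = 0.908). The call against poly IC was lost without poly IC pool 2, at adjusted p = 0.0943, and the call against naive was lost under quantile normalization, at a difference of 0.57 and adjusted p = 0.0633.

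Hspa14, which in human cells pairs with the J protein DNAJC2 at the ribosome, ran the other way. Its signals were 3030 and 2826 with poly IC plus ethanol, 1230 and 1087 with poly IC, and 1693 in naive cells. The ethanol pools were the highest and the poly IC pools the lowest of the 5 arrays. Hspa14 was higher with poly IC plus ethanol than with poly IC by 1.18 (SE 0.19, adjusted p = 0.00505), which was not called without poly IC pool 2 (1.10, adjusted p = 0.0541). Against naive, the difference was 0.71 with poly IC plus ethanol (adjusted p = 0.0619) and -0.47 with poly IC (adjusted p = 0.151). Its ribosomal partner Dnajc2 had signals of 3860 and 4565 with poly IC plus ethanol, 3912 and 4513 with poly IC, and 3854 in naive cells, with overlapping treated groups.

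The other 3 tested genes of the Hsp90 and Hsp70 group were not called in any comparison. Hspa4, an Hsp110-type nucleotide exchange factor for Hsp70, had signals of 4022 and 4555 with poly IC plus ethanol, 5085 and 5519 with poly IC, and 3750 in naive cells. Its probe sets disagreed. The brightest gave a difference of 0.47 for poly IC minus naive, and another that also passed the filter gave -1.15, with signals of 2627.5 and 2106.7 with poly IC plus ethanol, 4460.9 and 3531.1 with poly IC, and 9112.3 in naive cells. Hspa4l, its close relative, had signals of 994.3 and 1129 with poly IC plus ethanol, 779.6 and 794.1 with poly IC, and 1520 in naive cells, and a poly IC minus naive difference of -0.77 (adjusted p = 0.0720). Hspbp1, a nucleotide exchange factor that inhibits Hsp70, differed by at most 0.25 in size. Hspa1l and Hspa2 did not pass the filter.

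Of the 9 TRiC/CCT genes, Cct3 and Cct7 were lower with poly IC plus ethanol than with poly IC, and higher with poly IC than in naive cells. No TRiC/CCT gene was called between poly IC plus ethanol and naive. Cct3 encodes the gamma subunit of the ring. Its signals were 9428 and 9711 with poly IC plus ethanol, 17360 and 16282 with poly IC, and 8901 in naive cells. The poly IC pools stood apart, with the ethanol pools close to the naive array. The difference was -0.80 for poly IC plus ethanol minus poly IC (SE 0.13, adjusted p = 0.00563) and 0.90 for poly IC minus naive (SE 0.16, adjusted p = 0.00202). Both other Cct3 probe sets that passed the filter had the same signs, with -0.58 and -0.99 for poly IC plus ethanol minus poly IC and 0.91 and 1.01 for poly IC minus naive. Leaving out poly IC pool 1 or pool 2 ended the call against poly IC, at adjusted p = 0.0635 and 0.0520.

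Cct7, the eta subunit, had signals of 12140 and 9303 with poly IC plus ethanol, 21136 and 18173 with poly IC, and 11668 in naive cells. Again both poly IC pools were above the rest, and the naive array lay between the ethanol pools. The difference was -0.87 for poly IC plus ethanol minus poly IC (SE 0.16, adjusted p = 0.00867) and 0.74 for poly IC minus naive (SE 0.19, adjusted p = 0.0156). Without poly IC pool 1 neither was called, at adjusted p = 0.0821 and 0.0938. The other 7 TRiC/CCT genes were not called in any comparison, although the median of all 9 was -0.43 for poly IC plus ethanol minus poly IC and 0.28 for poly IC minus naive. Tcp1, the alpha subunit, had signals of 2015 and 1490 with poly IC plus ethanol, 2677 and 2454 with poly IC, and 1963 in naive cells, a difference of -0.50 for poly IC plus ethanol minus poly IC (adjusted p = 0.140). Cct4, the delta subunit, had signals of 13620 and 9373 with poly IC plus ethanol, 18356 and 14637 with poly IC, and 16680 in naive cells. In Cct4 the naive array lay between the poly IC pools, unlike in Cct3 and Cct7. Cct6a, a zeta subunit, had signals of 2743 and 3178 with poly IC plus ethanol, 3740 and 2900 with poly IC, and 2242 in naive cells. Cct6b, the zeta subunit known from testis, had signals of 733.3 and 932.7 with poly IC plus ethanol, 447.8 and 404.4 with poly IC, and 608.4 in naive cells. Its poly IC pools were the lowest arrays and its ethanol pools the highest, and it was not called (difference 0.67 for poly IC plus ethanol minus poly IC, adjusted p = 0.230).

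The mitochondrial chaperones centre on Hspd1 (Hsp60) and its lid Hspe1 (Hsp10), which fold imported proteins. Hspd1 had signals of 19248 and 15690 with poly IC plus ethanol, 31865 and 28060 with poly IC, and 16139 in naive cells. The poly IC pools were the highest, and the naive array lay between the ethanol pools. Hspd1 was lower with poly IC plus ethanol than with poly IC by -0.77 (SE 0.14, adjusted p = 0.00772), and higher with poly IC than in naive cells by 0.88 (SE 0.17, adjusted p = 0.00304). The first of these calls was lost without poly IC pool 1 (-0.68, adjusted p = 0.0711). Both were lost when the probe sets of a gene were averaged, at -0.62 (adjusted p = 0.132) and 0.70 (adjusted p = 0.0936). The second, dimmer Hspd1 probe set had signals of 174.0 and 950.9 with poly IC plus ethanol, 1027.5 and 518.7 with poly IC, and 440.3 in naive cells. Hspe1 had signals of 8107 and 7399 with poly IC plus ethanol, 11964 and 10290 with poly IC, and 10499 in naive cells. Here the ethanol pools were the lowest and the naive array lay between the poly IC pools; the difference of -0.51 between poly IC plus ethanol and poly IC was not called (adjusted p = 0.0544).

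Hspa9, the mitochondrial Hsp70, had signals of 7519 and 7044 with poly IC plus ethanol, 10510 and 8771 with poly IC, and 6763 in naive cells, with differences of -0.39 for poly IC plus ethanol minus poly IC (adjusted p = 0.137) and 0.49 for poly IC minus naive (adjusted p = 0.0693). Dnajc15, a J protein of the inner membrane, had signals of 1279 and 1033 with poly IC plus ethanol, 1132 and 1047 with poly IC, and 1493 in naive cells, with overlapping treated groups. The J protein Dnaja3 was not called, and Dnajc11 did not pass the filter.

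The promoters of members were searched for the elements to which the stress transcription factors bind, in the 250 bases before each RefSeq gene start (GRCm38.p6), on both strands. Of the 65 members, 56 had a promoter in the table. The heat shock element was read as 3 alternating GAA and TTC units, each 2 bases apart, in either phase. It was found for Dnajb6, Hspd1 and Hspe1, against 139 of 27025 genes, or 0.514%. Hspd1 and Hspe1 lie head to head and share the same stretch of chromosome 1, so theirs is the same stretch read from either strand. It holds 2 overlapping matches and ends 126 bases before the Hspd1 start and 71 before the Hspe1 start. These sequences are shown because Hspd1 and Dnajb6 were both called higher with poly IC, and Hspe1 was not. Capitals mark the matched bases, and each line reads 5′ to 3′. Hspd1 is at chr1:55088053-55088082 on the minus strand, Hspe1 at the same bases on the plus strand, and Dnajb6 at chr5:29735846-29735870 on the plus strand.
Hspd1: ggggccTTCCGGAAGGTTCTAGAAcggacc
Hspe1: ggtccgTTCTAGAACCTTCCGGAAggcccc
Dnajb6: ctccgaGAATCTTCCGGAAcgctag
No heat shock element was found in the promoters of Cct3 or Cct7, and the promoter of Hsp90aa1 was not in the table. The absence of these letters says nothing about heat shock factor 1 at other positions.

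**Figure D2:**
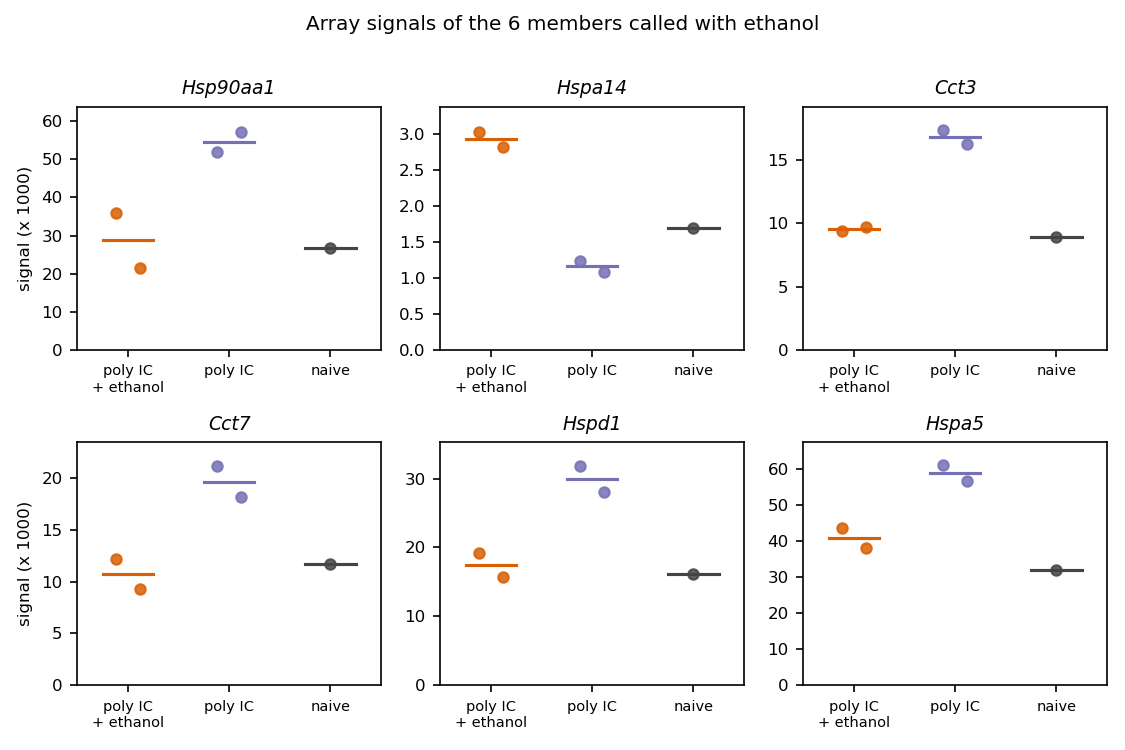
Array signal (linear axis from 0, in units of 1000) of the 6 members called between poly IC plus ethanol and poly IC, for each of the 2 poly IC plus ethanol pools, the 2 poly IC pools and the naive array; lines are group means. In Hsp90aa1, Cct3, Cct7, Hspd1 and Hspa5 both poly IC pools are above all other arrays, and in Hspa14 they are below all others.

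Of the 9 tested ER chaperones, Hspa5 was called lower between poly IC plus ethanol and poly IC (median of the 9, -0.27). Hspa5 was called higher and Herpud1 lower between poly IC and naive (median 0.20). Hspa5 encodes BiP, the main Hsp70 of the ER lumen and the sensor-bound chaperone of the unfolded protein response. Its signals were 43830 and 38255 with poly IC plus ethanol, 61108 and 56772 with poly IC, and 32081 in naive cells. The groups did not overlap, with the ethanol pools between poly IC and naive. Hspa5 was higher with poly IC than in naive cells by 0.87 (SE 0.13, adjusted p = 0.000765), a call kept in all 12 alternatives tried. The 12 alternatives of a comparison with naive all keep the same single naive array, so they do not test how it varies. Hspa5 was lower with poly IC plus ethanol than with poly IC by -0.52 (SE 0.11, adjusted p = 0.0145). That second call was lost in 5 of 13 alternatives, among them quantile normalization (-0.30, adjusted p = 0.0828) and leaving out poly IC pool 1 or pool 2 (adjusted p = 0.0948 and 0.0594). Poly IC plus ethanol minus naive was 0.35 (adjusted p = 0.102).

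Hsp90b1, which encodes Grp94 and folds Toll-like receptors and integrins, was not called in any comparison. Its signals were 21980 and 21068 with poly IC plus ethanol, 27421 and 24570 with poly IC, and 24700 in naive cells, so that the naive array lay between the poly IC pools. The difference for poly IC minus naive was 0.07 (95% confidence interval -0.25 to 0.39). Canx, the membrane lectin chaperone calnexin, had signals of 2357 and 2783 with poly IC plus ethanol, 2825 and 2134 with poly IC, and 2032 in naive cells, with overlapping treated groups. Calr, its soluble partner calreticulin, gave signals of 203.5 and 247.7 with poly IC plus ethanol, 40.3 and 36.3 with poly IC, and 124.7 in naive cells. Hyou1, the large ER Hsp70 relative, gave 42.1 and 29.6 with poly IC plus ethanol, 13.7 and 19.4 with poly IC, and 75.7 in naive cells. Both were below the brightest unspiked control in every group and were not tested.

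The ER J proteins pass clients to BiP and start its ATP cycle. Dnajb9, a classical XBP1 target, had signals of 4504 and 3840 with poly IC plus ethanol, 5553 and 6714 with poly IC, and 5792 in naive cells. Its ethanol pools were the lowest arrays, and the difference from poly IC was -0.53 (adjusted p = 0.0759). Its other passing probe set gave 0.05, with signals of 2665.5 and 2121.8 with poly IC plus ethanol, 2392.0 and 2203.1 with poly IC, and 2034.1 in naive cells, so the 2 probe sets disagreed. Dnajc3, an inhibitor of PKR and of its ER relative PERK, had signals of 4215 and 4181 with poly IC plus ethanol, 5249 and 4526 with poly IC, and 3842 in naive cells. The difference of 0.32 for poly IC minus naive was not called (adjusted p = 0.238). The other passing Dnajc3 probe sets gave -0.05 and 0.01 for this comparison. For poly IC plus ethanol minus poly IC they gave 0.19 and 0.13, against -0.20 from the brightest, so the probe sets disagreed. Dnajb11, Dnajc1 and Dnajc10 were not called either. Dnajc10, a reductase with a J domain, was 0.30 for poly IC plus ethanol minus poly IC, while Dnajb11 was -0.26 and Dnajc1 -0.48.

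Herpud1, a membrane protein of ER-associated degradation, was the 1 member called lower than naive in both treated groups. Its signals were 4052 and 2618 with poly IC plus ethanol, 4745 and 5028 with poly IC, and 8410 in naive cells. The naive array was the highest and the ethanol pools the lowest. Herpud1 was lower with poly IC plus ethanol than in naive cells by -1.30 (SE 0.25, adjusted p = 0.00540), a call kept in all 12 alternatives. It was lower with poly IC than in naive cells by -0.75 (SE 0.25, adjusted p = 0.0413). The second call was lost in 6 of 12 alternatives, with adjusted p = 0.142 without poly IC pool 1 and 0.111 without pool 2. The B cell markers given above were also highest on the naive array, and their part in the Herpud1 result was not tested.

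The ER stress element was searched as CCAAT, 9 bases of any kind, and CCACG. It was found in the promoters of 6 members, Calr, Canx, Dnajc3, Hsp90b1, Hspa5 and Pdia6, against 35 of 27025 genes, or 0.130%. All 6 belong to the 15 ER chaperone and disulfide isomerase members with a promoter in the table. Of the 2 parts taken alone, CCACG was found for 33 of the 56 members and 31.0% of all genes, and CCAAT for 27 members and 37.5% of all genes. Of the 6 genes with the whole element, Hspa5 was called higher with poly IC, 4 others were tested and not called, and Calr was not tested. From the brightest probe sets of the 5 tested genes, the poly IC minus naive differences were 0.87 for Hspa5, 0.38 for Pdia6 and 0.32 for Dnajc3. They were 0.25 for Canx and 0.07 for Hsp90b1. Other passing probe sets gave 0.09 and 0.59 for Pdia6, -0.05 and 0.01 for Dnajc3, and 0.25 for Canx. The windows are shown because few genes hold the whole element and these are ER folding genes. Capitals mark the 5-base blocks, 20 bases flank the element on either side, and each line reads 5′ to 3′ along the strand that holds the element. Hspa5 is at chr2:34772005-34772063 on the plus strand, 46 bases before the start. The Pdia6 window is at chr12:17266471-17266529 on the plus strand, and that of Dnajc3 at chr14:118937807-118937865 on the plus strand. The Canx window is at chr11:50325780-50325838 on the minus strand. Hsp90b1, a gene on the minus strand, has one window at chr10:86705618-86705676 on the minus strand and another at chr10:86705513-86705571 printed from the plus strand. The Calr window, at chr8:84847055-84847113, is printed from the plus strand, opposite to its gene.
Hspa5: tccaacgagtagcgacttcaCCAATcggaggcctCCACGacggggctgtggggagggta
Pdia6: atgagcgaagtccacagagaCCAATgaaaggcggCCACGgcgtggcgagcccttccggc
Dnajc3: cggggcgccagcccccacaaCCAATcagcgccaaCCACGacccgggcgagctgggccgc
Canx: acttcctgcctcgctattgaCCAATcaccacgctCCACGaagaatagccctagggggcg
Hsp90b1, distal: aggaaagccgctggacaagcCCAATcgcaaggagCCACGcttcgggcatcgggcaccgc
Hsp90b1, proximal: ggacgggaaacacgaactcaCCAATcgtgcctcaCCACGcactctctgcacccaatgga
Calr: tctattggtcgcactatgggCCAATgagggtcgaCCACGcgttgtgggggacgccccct
A match is a description of the letters and not evidence of binding in these cells.

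**Figure D3:**
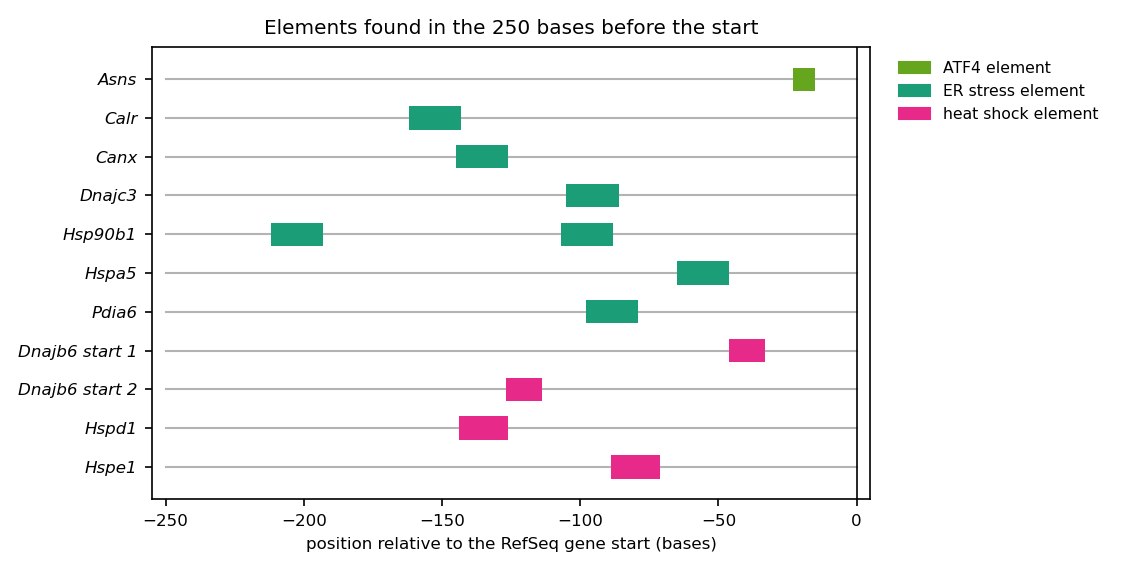
Positions of the elements in the promoters of the members shown, in bases before the RefSeq gene start (0, vertical line); blocks are drawn to scale and their colour gives the element. The ER stress element of Hspa5 lies 46 bases before the start, that of Calr 143 bases before it, and the promoter of Hsp90b1 holds 2. The ATF4 element is drawn for Asns only. Those of Herpud1 and Hspa14, 104 and 48 bases before the start, are not drawn.

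The protein disulfide isomerases form and rearrange disulfide bonds in the ER. P4hb, the founding member of the family, had signals of 6183 and 8168 with poly IC plus ethanol, 8650 and 8321 with poly IC, and 4486 in naive cells. The naive array was the lowest, and the groups did not overlap. P4hb was higher with poly IC than in naive cells by 0.88 (SE 0.21, adjusted p = 0.00855), called in all 12 alternatives, with a highest adjusted p of 0.0495. Its difference for poly IC plus ethanol minus naive was 0.64 (adjusted p = 0.0612). A second P4hb probe set, which did not pass the filter, had a poly IC minus naive difference of -0.25. Averaging the passing probe sets of a gene therefore left the P4hb difference as it was. No other disulfide isomerase was called.

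Pdia6, which limits signalling by the ER stress sensor IRE1, had signals of 11628 and 9258 with poly IC plus ethanol, 13938 and 14220 with poly IC, and 10729 in naive cells. Its poly IC pools were the highest and the naive array lay between the ethanol pools. It was not called, at -0.43 for poly IC plus ethanol minus poly IC (adjusted p = 0.0952) and 0.38 for poly IC minus naive (adjusted p = 0.134). Other passing Pdia6 probe sets gave -0.55 and -0.45 for the first comparison, and 0.09 and 0.59 for the second. Pdia3, the partner of calnexin and a part of the peptide-loading complex of MHC class I, had signals of 9429 and 8494 with poly IC plus ethanol, 10074 and 12290 with poly IC, and 12118 in naive cells. Pdia5 had signals of 1427 and 1148 with poly IC plus ethanol, 1418 and 1379 with poly IC, and 986.7 in naive cells, with the naive array the lowest. Pdia4 differed by at most 0.10 in size in the 3 comparisons. The median of the 5 genes was -0.25 for poly IC plus ethanol minus poly IC and 0.38 for poly IC minus naive.

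Of the 5 regulators and targets of the stress responses, Xbp1, Atf4 and Asns were higher with poly IC than in naive cells, and none was called between poly IC plus ethanol and poly IC. Xbp1 encodes the transcription factor whose RNA is spliced by IRE1, and the array does not separate the spliced form here. Its signals were 17352 and 19801 with poly IC plus ethanol, 20859 and 18463 with poly IC, and 12960 in naive cells. The treated groups overlapped, and the naive array was the lowest. The difference for poly IC minus naive was 0.59 (SE 0.16, adjusted p = 0.0185), which was lost without poly IC pool 1 (0.50, adjusted p = 0.109) and under quantile normalization (0.44, adjusted p = 0.0645). Poly IC plus ethanol minus naive was 0.51 (adjusted p = 0.0575), and poly IC plus ethanol minus poly IC was -0.08 (95% confidence interval -0.38 to 0.21). Xbp1 is also a plasma cell gene. Among the other plasma cell markers, Jchain had signals of 644.6 and 700.7 with poly IC plus ethanol, 758.5 and 573.3 with poly IC, and 972.4 in naive cells. Prdm1, the plasma cell and macrophage repressor Blimp-1, had signals of 2331 and 2636 with poly IC plus ethanol, 1956 and 1545 with poly IC, and 362.3 in naive cells. Irf4, a B and plasma cell factor, had signals of 3846 and 4459 with poly IC plus ethanol, 2455 and 2387 with poly IC, and 12524 in naive cells. Every treated array was above naive in Prdm1, as in Xbp1, and below it in Irf4 and Jchain. Sdc1 and Tnfrsf17 did not pass the filter, and the part of plasma cells in the Xbp1 result was not tested.

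Atf4, the transcription factor of the integrated stress response, had signals of 22727 and 22386 with poly IC plus ethanol, 25097 and 23951 with poly IC, and 18287 in naive cells. The 3 groups did not overlap, but the distances were small. The difference for poly IC minus naive was 0.42 (SE 0.14, adjusted p = 0.0420), and this call was lost in 7 of 12 alternatives, with adjusted p = 0.166 without poly IC pool 1, 0.112 without pool 2, and a difference of 0.19 under quantile normalization (adjusted p = 0.287). Asns encodes asparagine synthetase, a direct ATF4 target. Its signals were 2694 and 3569 with poly IC plus ethanol, 2819 and 2910 with poly IC, and 1548 in naive cells. Every treated array was above the naive one, and the treated groups overlapped. Asns was higher than naive by 0.90 with poly IC plus ethanol (SE 0.23, adjusted p = 0.0241) and by 0.79 with poly IC (SE 0.23, adjusted p = 0.0244). Without poly IC pool 1 these had adjusted p = 0.0529 and 0.0841, and without pool 2 they had adjusted p = 0.0507 and 0.104.

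The ATF4 element was searched as TGATG, 1 base of any kind, and AA. It was found for 3 of the 56 members, Asns, Herpud1 and Hspa14, and for 1056 of 27025 genes, or 3.91%. With so few members, these shares are not told apart. The Asns window is shown because Asns is the textbook target of ATF4 and was called higher in both treated groups. It is at chr6:7693210-7693252 on the minus strand, with the element in capitals, 15 bases before the start.
Asns: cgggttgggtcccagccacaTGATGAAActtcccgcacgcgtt
Herpud1 and Hspa14 also matched the searched pattern, Hspa14 as TGATGAAA and Herpud1 as TGATGCAA on the strand opposite to its gene. Herpud1 was called lower than naive in both treated groups, and Hspa14 was not called in either comparison with naive.

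Ddit3, which encodes the transcription factor CHOP of prolonged ER stress, was not called in any comparison. Its signals were 681.4 and 640.6 with poly IC plus ethanol, 169.4 and 723.5 with poly IC, and 1223 in naive cells. The naive array was the highest, and the poly IC pools lay on either side of the ethanol pools. The poly IC minus naive difference was -1.21 (SE 0.52, 95% confidence interval -2.36 to -0.05, adjusted p = 0.103). Atf6, the membrane-bound sensor, had signals of 3834 and 2736 with poly IC plus ethanol, 2620 and 1889 with poly IC, and 2230 in naive cells. The ethanol pools were the highest, with a difference of 0.50 from poly IC (adjusted p = 0.183). Poly IC minus naive was 0.00 for Atf6 (95% confidence interval -0.60 to 0.60).

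**Figure D4:**
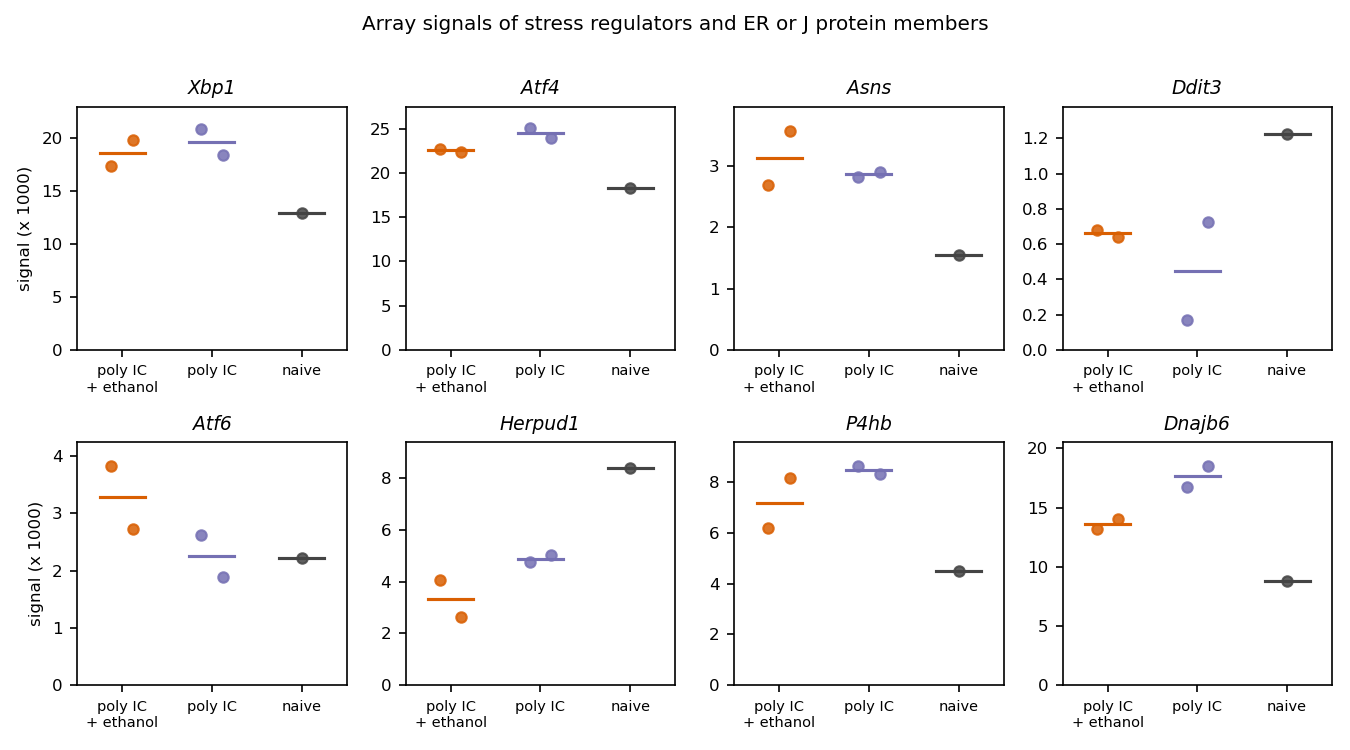
Array signal (linear axis from 0, in units of 1000) of stress regulators (Xbp1, Atf4, Asns, Ddit3, Atf6) and of Herpud1, P4hb and Dnajb6, for each of the 2 poly IC plus ethanol pools, the 2 poly IC pools and the naive array; lines are group means. The naive array is the lowest in Xbp1, Atf4, Asns, P4hb and Dnajb6, and the highest in Ddit3 and Herpud1.

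Of the 16 tested J proteins outside the ER and mitochondria, Dnajb6 and Dnaja2 were higher with poly IC than in naive cells and Dnajc9 was lower. None was called between poly IC plus ethanol and poly IC. Dnajb6, which keeps polyglutamine and other aggregation-prone proteins soluble, had signals of 13216 and 13994 with poly IC plus ethanol, 16747 and 18513 with poly IC, and 8753 in naive cells. The groups did not overlap, with the ethanol pools in the middle. Dnajb6 was higher than naive by 0.62 with poly IC plus ethanol (SE 0.16, adjusted p = 0.0241) and by 0.99 with poly IC (SE 0.16, adjusted p = 0.00112). Its second passing probe set gave 1.20 and 1.40 for the same comparisons. The poly IC call was kept in all 12 alternatives, and the call with ethanol was lost without poly IC pool 1 or pool 2, at adjusted p = 0.0540 and 0.0545, and with arrays centred on their medians, at 0.0551. The promoter of Dnajb6 is among the 3 with a heat shock element shown above.

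Dnaja2, a general Hsp70 partner, had signals of 2392 and 1944 with poly IC plus ethanol, 2525 and 2877 with poly IC, and 1391 in naive cells. The naive array was the lowest and the poly IC pools the highest. The poly IC minus naive difference was 0.84 (SE 0.23, adjusted p = 0.0188), with adjusted p = 0.0526 without poly IC pool 1 and 0.112 without pool 2. Dnajc9, a J protein that binds histones H3 and H4 and is linked to DNA replication, had signals of 4484 and 4111 with poly IC plus ethanol, 3844 and 3485 with poly IC, and 6470 in naive cells. The naive array was the highest and the poly IC pools the lowest. The poly IC minus naive difference was -0.78 (SE 0.19, adjusted p = 0.0121), with adjusted p = 0.0852 without poly IC pool 2.

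Dnaja1, the farnesylated relative of Dnaja2, had signals of 8111 and 8882 with poly IC plus ethanol, 12824 and 11214 with poly IC, and 8698 in naive cells. Its poly IC pools stood above the other arrays, at -0.49 for poly IC plus ethanol minus poly IC (adjusted p = 0.0589) and 0.45 for poly IC minus naive (adjusted p = 0.0748). Dnajc13, a J protein of endosomes, had signals of 2601 and 1745 with poly IC plus ethanol, 3463 and 2899 with poly IC, and 2388 in naive cells. Dnajc7, a carrier between Hsp70 and Hsp90, was the flattest member, between 20884 and 21872 on all 5 arrays. Of the J proteins, Dnajb5 and Dnajb8 did not pass the filter.

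The small heat shock proteins hold unfolded proteins without ATP. Hspb8, the partner of Bag3 in selective autophagy, had signals of 817.6 and 1291 with poly IC plus ethanol, 465.5 and 889.5 with poly IC, and 441 in naive cells. Hspb2, known from muscle, had signals of 1199 and 1222 with poly IC plus ethanol, 1310 and 1436 with poly IC, and 809.8 in naive cells. The naive array was the lowest in both genes, and neither was called in any comparison. Hspb1 did not pass the filter. Hspb11, a cilium transport protein that carries the name, was not called.

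Genes of the same pathways outside the set were counted from 3 lists. The list of heat shock factors and chaperone cofactors had 14 tested genes, all cofactors such as Bag, prefoldin and Hsp90 adaptor genes and none of them a heat shock factor. Between poly IC plus ethanol and poly IC, 1 was lower (7.14%, against 4.98% of all genes), with a median of -0.32. Between poly IC and naive, 2 were higher and 1 lower (14.3% and 7.14%, against 12.1% and 20.8%), with a median of 0.12. Between poly IC plus ethanol and naive, 1 was higher and 1 lower (7.14% each, against 8.69% and 8.52%), with a median of -0.15. Stip1, the adaptor that links Hsp70 to Hsp90, had signals of 3007 and 2208 with poly IC plus ethanol, 4812 and 4868 with poly IC, and 2080 in naive cells. As for Hsp90aa1, the poly IC pools stood above the other arrays. Stip1 was lower with poly IC plus ethanol than with poly IC by -0.85 (SE 0.19, adjusted p = 0.0194) and higher with poly IC than in naive cells by 1.13 (SE 0.23, adjusted p = 0.00412). The first call was lost without poly IC pool 1 or pool 2, at adjusted p = 0.112 and 0.141. Bag3, an Hsp70 exchange factor and heat shock factor 1 target, had signals of 3850 and 2824 with poly IC plus ethanol, 4407 and 3976 with poly IC, and 1267 in naive cells. It was higher than naive by 1.23 with poly IC plus ethanol (SE 0.23, adjusted p = 0.00538) and by 1.55 with poly IC (SE 0.23, adjusted p = 0.000770). Hsbp1, which binds heat shock factor 1, was lower with poly IC plus ethanol than in naive cells by -0.83 (adjusted p = 0.0496), a call lost in 8 of 12 alternatives. Stub1, the ubiquitin ligase CHIP, was lower with poly IC than in naive cells by -0.82 (adjusted p = 0.0128), a call lost without either poly IC pool, at adjusted p = 0.0704 without pool 1 and 0.0548 without pool 2.

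The list of other genes of ER folding, oxidation, glycan control and ER-associated degradation held 28 tested genes. Between poly IC plus ethanol and poly IC, 2 were higher (7.14%, against 6.03% of all genes), with a median of 0.04. Between poly IC and naive, 5 were lower and none higher (17.9% lower, against 20.8% of all genes), with a median of -0.03. Between poly IC plus ethanol and naive, 1 was higher and 1 lower (3.57% each, against 8.69% and 8.52%), with a median of -0.10. Erp29, a chaperone of the ER lumen, had signals of 10347 and 9846 with poly IC plus ethanol, 5091 and 4601 with poly IC, and 15460 in naive cells. The poly IC pools were the lowest and the naive array the highest, which is the reverse of the order in Hspa5. Erp29 was higher with poly IC plus ethanol than with poly IC by 1.02 (SE 0.14, adjusted p = 0.00292), and lower with poly IC than in naive cells by -1.63 (SE 0.17, adjusted p = 8.5e-05). Both calls were kept in every alternative tried. Erp29 was also the lower gene between poly IC plus ethanol and naive, by -0.60 (adjusted p = 0.0407, and 0.0809 without poly IC pool 1 and 0.0791 without pool 2). Ero1b, an oxidase that recharges disulfide isomerases, had signals of 4782 and 5408 with poly IC plus ethanol, 3667 and 2687 with poly IC, and 8186 in naive cells. Its order of groups was that of Erp29, at 0.65 for poly IC plus ethanol minus poly IC (SE 0.18, adjusted p = 0.0487) and -1.31 for poly IC minus naive (SE 0.22, adjusted p = 0.00159). The first call was lost with no filter, quantile normalization, centred arrays, averaged probe sets, no trend or no naive array (adjusted p = 0.0518 to 0.127). It was also lost without poly IC pool 1 (difference 0.86) or pool 2 (difference 0.45). Ero1a, its relative, was higher with poly IC plus ethanol than in naive cells by 0.73 (adjusted p = 0.0342), a call lost in 6 of 12 alternatives. Txndc5, a disulfide isomerase of secretory cells, was lower with poly IC than in naive cells by -1.33 (SE 0.25, adjusted p = 0.00287). The 10 tested B cell markers had the same order of groups in their medians, with 4 higher between poly IC plus ethanol and poly IC (median 0.50) and 9 lower between poly IC and naive (median -1.44). Their part in the Erp29, Ero1b and Txndc5 results was not tested.

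The list of unfolded protein and integrated stress response signalling genes held 19 tested genes. Between poly IC plus ethanol and poly IC, 2 were higher and 2 lower (10.5% each, against 6.03% and 4.98% of all genes), with a median of 0.14. Between poly IC and naive, 8 were higher and 4 lower (42.1% and 21.1%, against 12.1% and 20.8%), with a median of 0.32. Between poly IC plus ethanol and naive, 8 were higher and 1 lower (42.1% and 5.26%, against 8.69% and 8.52%), with a median of 0.08. Nupr1, a small nuclear protein downstream of ATF4, had signals of 48285 and 47600 with poly IC plus ethanol, 17548 and 16449 with poly IC, and 7154 in naive cells. The groups were far apart, with poly IC plus ethanol the highest. Nupr1 was higher with poly IC plus ethanol than with poly IC by 1.48 (SE 0.11, adjusted p = 0.000180) and higher with poly IC than in naive cells by 1.22 (SE 0.14, adjusted p = 0.000133), and both calls were kept in every alternative tried. Atf3, a transcription factor induced by ATF4 and by Toll-like receptors, had signals of 26532 and 27458 with poly IC plus ethanol, 30243 and 34302 with poly IC, and 6835 in naive cells. It was higher with poly IC than in naive cells by 2.20 (SE 0.15, adjusted p = 2.79e-06).

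Eif2ak2, which encodes PKR and is induced by interferon, had signals of 2694 and 2829 with poly IC plus ethanol, 5621 and 5795 with poly IC, and 641.7 in naive cells. It was lower with poly IC plus ethanol than with poly IC by -0.98 (SE 0.17, adjusted p = 0.00615) and higher with poly IC than in naive cells by 2.74 (SE 0.20, adjusted p = 5.6e-06). The first call was lost without poly IC pool 1 or pool 2, at adjusted p = 0.0556 and 0.0793. Cebpb, a transcription factor of the acute phase and a partner of CHOP and ATF4, had signals of 45359 and 40130 with poly IC plus ethanol, 64624 and 80230 with poly IC, and 44100 in naive cells. It was lower with poly IC plus ethanol than with poly IC by -0.75 (SE 0.12, adjusted p = 0.00550). Ppp1r15b encodes a regulatory subunit of the phosphatase that reverses the phosphorylation of eIF2 alpha. Its signals were 29243 and 24132 with poly IC plus ethanol, 23598 and 24722 with poly IC, and 9803 in naive cells. It was higher than naive by 1.42 with poly IC plus ethanol (adjusted p = 0.000186) and by 1.28 with poly IC (adjusted p = 0.000228). Eif2ak3, which encodes the ER kinase PERK and is named here after its values were seen, was the lower gene between poly IC plus ethanol and naive. Its signals were 438.8 and 582.4 with poly IC plus ethanol, 425.3 and 261.7 with poly IC, and 2888 in naive cells. It was lower than naive by -2.05 with poly IC plus ethanol (SE 0.40, adjusted p = 0.00614), and at least 7.48-fold lower with poly IC, whose mean was below the brightest unspiked control (adjusted p = 0.00133). Its means of 510.6 with poly IC plus ethanol and 343.5 with poly IC were both under the filter of 551.8. It was thus tested only through its naive signal, and these p-values are no support for a difference.

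The summed signal of the neutrophil markers given above was highest with poly IC, as were the group means of Hsp90aa1, Cct3, Cct7, Hspd1, Hspa5, P4hb, Xbp1, Atf4, Dnajb6 and Dnaja2 among the called members, and of Stip1, Bag3, Atf3, Eif2ak2 and Cebpb outside them. Of 11 tested markers, 6 were lower between poly IC plus ethanol and poly IC (median -0.96) and 8 higher between poly IC and naive (median 2.07). These counts and medians are partly set by the filter. Ly6g, Cxcr2, Ngp, Ltf and Mmp8 passed it only through poly IC, as their means in both other groups were under 551.8. Mpo and Elane did not pass. The part of neutrophils in these results was not tested.

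**Figure D5:**
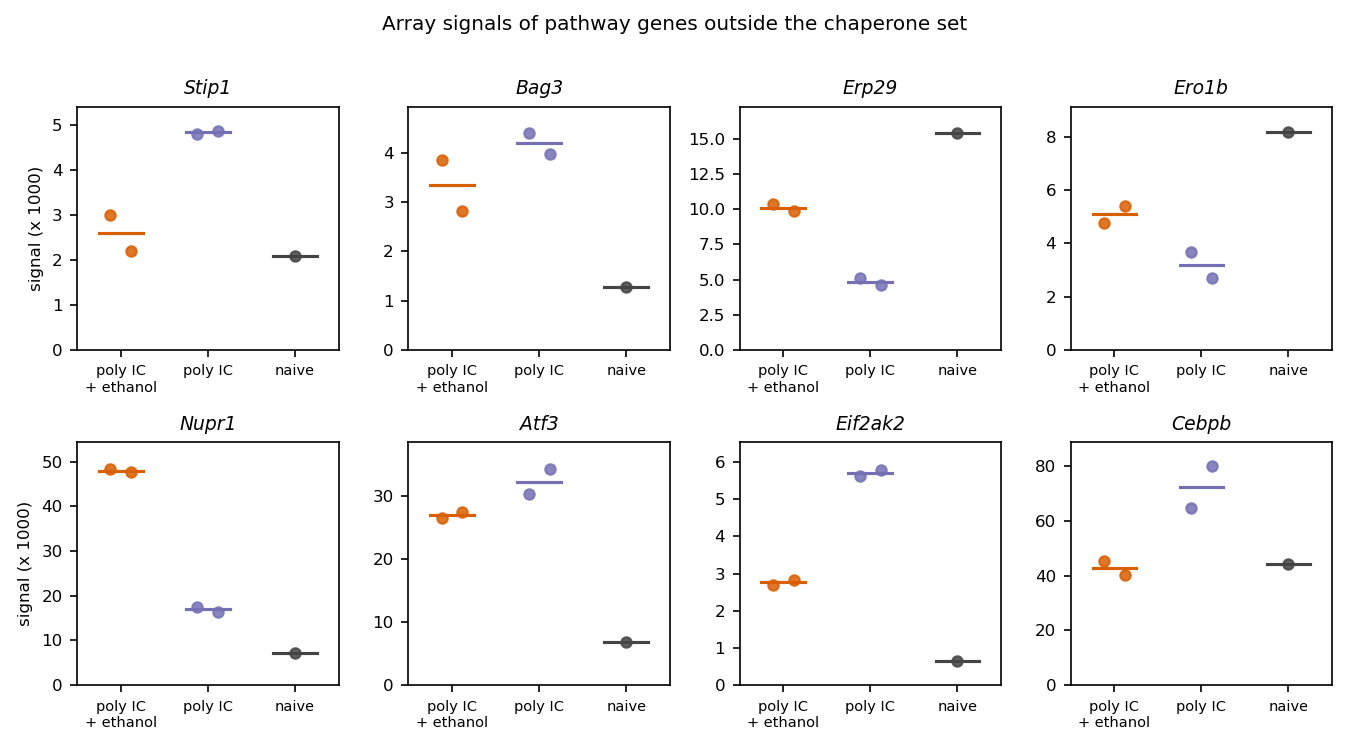
Array signal (linear axis from 0, in units of 1000) of 8 pathway genes outside the chaperone set, for each of the 2 poly IC plus ethanol pools, the 2 poly IC pools and the naive array; lines are group means. Stip1 and Eif2ak2 are highest with poly IC, Erp29 and Ero1b are highest in naive cells and lowest with poly IC, and Nupr1 is highest with poly IC plus ethanol.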

How the data were processed

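Signals of 5 Affymetrix MG-U74Av2 arrays were used as deposited. Per the submitters' processing notes and the labels' protocols, the authors made these intensity values with Microarray Suite 5.0 and Data Mining Tool 3.0, scaled to a target of 2500. Of 12488 probe sets, 66 controls were left out. The platform table pairs 10833 with 1 gene symbol, 396 with several and 1193 with none; of the first, 10817 were found by Entrez number in RefSeq (GRCm38.p6). Probe sets with a mean signal under the 40th percentile (551.8) were dropped, and the brightest of each gene was kept, which gave 5443 genes. Values were tested as log2(signal + 250) with limma 3.58.1 (R 4.3.3; lmFit, eBayes with trend) over all 5 arrays, with Benjamini-Hochberg adjustment. The fit has 2 residual degrees of freedom. The test was checked on simulated data. A group is below control where its mean is under that of the brightest of 19 unspiked controls. With 5 arrays, their number limits the precision. Alternatives were the offset, filter, normalization, trend, probe set rule, replicate block and leaving out each array. The naive array was left out only for poly IC plus ethanol against poly IC. Promoter sequences are RefSeq's; protein sequences were not used here. Every tested member could be named, and of other pathway genes the 3 per list and comparison with the largest moderated statistic. Members and lists were chosen with earlier results of these data known.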

Additional observations from a re-analysis of the deposited data

How the results depend on the processing

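No called difference changed sign under any alternative. Every alternative of a comparison with naive kept the same single naive array, so none tested how that array varies. Of the calls among members, 4 of 13 between poly IC and naive (Hspa5, Cct3, P4hb and Dnajb6) and 1 of 3 between poly IC plus ethanol and naive (Herpud1) were kept in every alternative, and none of the 6 between poly IC plus ethanol and poly IC was. In that last comparison the lower members numbered 3 with no filter, 0 without limma's eBayes trend (133 calls over all genes), 10 with the replicate block and 1 to 14 with 1 array left out, and the higher members 0 to 2 with 1 array left out. The member median was -0.25 with arrays centred on their medians, and -0.19 to -0.11 with 1 array left out. Between poly IC and naive, the higher members numbered 6 without the trend and 6 to 16 with 1 array left out. The lower members numbered 1 with no filter, 1 with centred arrays and 1 to 5 with 1 array left out, and the member median was 0.31 with centred arrays and 0.11 with the probe sets of a gene averaged. Centring moved the median of all genes to -0.05 there, from -0.16. Between poly IC plus ethanol and naive, the higher members numbered 1 with no filter, 4 with quantile normalization, 1 with centred arrays, 0 without the trend (10.5% of members and 12.0% of all genes at an unadjusted p under 0.05 in limma), 5 with the replicate block and 0 to 7 with 1 array left out. The lower members there numbered 2 with the block and 1 to 5 with 1 array left out. Over all genes, the 599 calls between poly IC plus ethanol and poly IC were 324 with no filter and 143 to 1066 with 1 array left out. The 1788 calls between poly IC and naive were 1181 to 2341, and the 937 between poly IC plus ethanol and naive 723 to 1501, with 1 array left out. Without ethanol pool 1 the prior degrees of freedom were 40.2, against 7.77 with all arrays. The replicate numbers were treated as names only. The deviations of same-numbered pools correlated at 0.0408, which cannot show whether such pools shared a batch. The block is therefore not read as a pairing. Signals near the brightest unspiked control, such as those of Ddit3 and Dnajb2, limit what can be seen of dim members.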
